A study of Hordeum vulgare with 12 samples.

Results

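Cyclins, cyclin-dependent kinases and their inhibitors were followed in barley crowns (Hordeum vulgare, cultivar Golden Promise) through the start of crown-root formation. A gene was included if its description in the authors' deposited table held a word beginning with "cyclin" and if it had at least 10 reads in 3 or more of the 12 libraries. Of 63658 genes, 142 matched the description and 82 also met the read minimum. Of the 60 others, 36 had no read in any library, and the highest count among the 60 was 17. The 60 included 7 genes described as cyclin-dependent kinases, 2 described as their inhibitors and 5 described as regulatory subunits of the kinases.

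Grains were kept on 50 µM NPA, a blocker of polar auxin transport, through 3 days of cold, 3 days of germination and 3 days of hydroponic growth. The 0 h crowns were taken from these plants, and all later plants carried the same NPA treatment before being moved to 50 µM 1-NAA, a synthetic auxin, for 30 min, 1 h or 3 h. Each time had 3 libraries, independent biological replicates per the labels, and each library pooled 5 crowns, the 2 mm junction of root and stem. No crown kept on NPA was sampled at the later times, so the auxin, the loss of NPA, the new solution and the hour of the day cannot be told apart. In such bulk samples, fewer cells of a type and less RNA per cell cannot be told apart either.

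Cyclins are regulatory proteins that bind cyclin-dependent kinases and set when and on what the kinases act. In plants, D-type cyclins act at the entry into the cell cycle, A-type cyclins mainly during DNA replication and the phase after it, and B-type cyclins around mitosis. Plant cyclin-dependent kinase inhibitors fall into the KRP proteins (Kip-related proteins) and the SIAMESE-related proteins (SMR), both of which hold kinase complexes back. C-, H-, L- and T-type cyclins are known mainly as partners of kinases that act on RNA polymerase II, other kinases or splicing. Crown roots are the roots that cereals form from the shoot base, from cells of the crown that resume division.

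Most barley descriptions read only "Cyclin" or "Cyclin family protein", so the type was taken from the homolog descriptions in the same table where the barley description gave none. The 82 genes were 6 A-type, 11 B-type and 12 D-type cyclins, 13 cyclins of types C, H, L or T, 9 of types P or U and 10 other cyclins. The rest were 2 kinases, 4 proteins described as associated with a cyclin or kinase, and 14 inhibitors, of which 5 were of KRP type, 4 of SMR type and 5 of a type not given. The last gene, HORVU.MOREX.r2.5HG0350330.1, is described as cycling DOF factor 1. It matches the wording of the rule but is named for a transcription factor family and is no cyclin. In the gene names below, the prefix HORVU.MOREX.r2 and the version ending are left out. Kinases whose description uses other words are not covered.

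Reads assigned to genes ranged from 16093892 to 34019480 per library, and the 82 genes together held 0.0868% to 0.117% of them. Levels are given as counts per 1000000 assigned reads (CPM) after scaling between libraries, and 3 counts correspond to 0.0849 to 0.193 CPM. edgeR's quasi-likelihood test was run over all 24920 genes with enough reads, of which 81 were among the 82, and a gene passed at a Benjamini-Hochberg adjusted p under 0.05. The share of reads assigned to genes was 56.0% to 66.4% in the first replicates of 0 h, 30 min and 3 h, against 71.9% to 78.4% in the other 9 libraries. Markers of green tissue, 37 genes described as chlorophyll a-b binding proteins of which 2 had no read, summed to 4140 to 5310 CPM at 0 h, 3400 to 4050 at 30 min, 3350 to 4410 at 1 h and 2610 to 2970 at 3 h. At 3 h against 0 h, 17 of 33 tested green-tissue markers fell, where 0.799% of all tested genes fell. Phloem markers, 6 genes of which 4 were tested and 2 had no read, summed to 29.6 to 32.3 CPM at 0 h, 30.1 to 35.5 at 30 min, 29.1 to 35.4 at 1 h and 36.8 to 47.6 at 3 h. Of these, the phloem protein 2-like gene 3HG0201600 alone rose at 3 h (log2 fold change 1.19 ± 0.255, adjusted p = 0.0307), and the part of these markers in the results at 3 h was not tested. Of the tested markers of grain (4), root hair (5) and xylem (24), 0 passed in any comparison, and their sums at 3 h overlapped those at 0 h. Of all tested genes, 2.48% passed at 3 h against 0 h. The crown has no defining marker gene in the labels, so the tissue label was not checked.

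Per kilobase of gene model, the highest mean level over the 12 libraries was that of the SMR3-like inhibitor gene 4HG0345310, at 93.7 CPM per kb. The KRP-type gene 4HG0340150 followed with 63.4 CPM per kb. The gene model of 4HG0345310 has only 360 bases, so this order holds per length. Not divided by length, the median of 4HG0345310 over the libraries was 32.5 CPM, against 50.5 CPM for the T1-type cyclin 2HG0145600. The DOF gene, alone in its class, was at 1.00 CPM per kb. The other class medians ran from 4.75 CPM per kb for the P or U cyclins to 24.7 for the SMR-type inhibitors. The D-type cyclins were at 7.85 and the B-type cyclins at 8.99. Within each of these other classes but the kinases (11.1 to 18.3 CPM per kb), the members spread more widely than the class medians did. The A-type cyclins, for example, ranged from 0.299 to 27.9 CPM per kb.

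**Figure D1:**
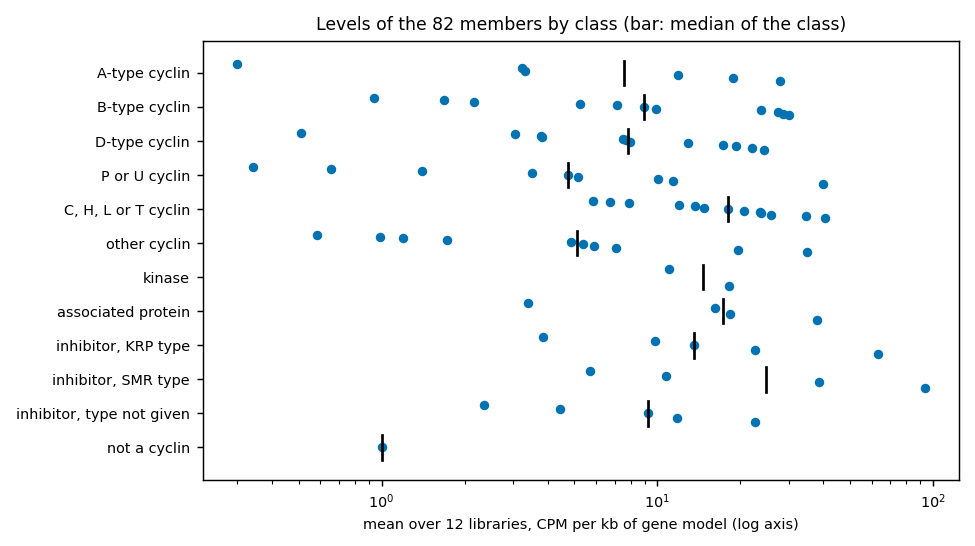
Mean level of each of the 82 genes over the 12 libraries, in CPM per kb of gene model on a log axis, by class; each point is a gene and the bar is the median of the class. The inhibitors 4HG0345310 (93.7) and 4HG0340150 (63.4) lie to the right of every cyclin.

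At 3 h against 0 h, 5 of the 81 tested genes passed (6.17%), 2 higher and 3 lower, where 2.48% of all tested genes passed. The 3 that fell were all inhibitors. The 2 that rose were the gene described as cyclin B1 and the DOF gene. No A-type or D-type cyclin, kinase or associated protein passed. The share of all tested genes that fell was 0.799% and the share that rose was 1.68%. Without regard to the test, 4 genes had all 3 libraries at 3 h above all 3 at 0 h and 9 had all 3 below, against 6.66% and 6.63% of all tested genes. The median log2 fold change of the 81 genes was -0.0369 and that of all tested genes was -0.00425.

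The KRP-type gene 4HG0340150, whose listed rice homolog is cyclin-dependent kinase inhibitor 5, lies at 4H:596321053-596323350 on the minus strand. Its level was 54.4, 45.99 and 39.8 CPM in the 3 libraries at 0 h, 48.9, 44.9 and 45.5 at 30 min, 48.8, 48.5 and 40.1 at 1 h, then 24.9, 24.7 and 26.3 at 3 h. The first 3 times overlapped and all 3 libraries at 3 h were below the other 9. The change at 3 h against 0 h was -0.88 ± 0.135 on the log2 scale (SE), a 1.84-fold lower level (adjusted p = 0.00396), and all 12 fits that left out 1 library made the same call. Against 1 h the change was -0.86 (adjusted p = 0.00692), again with the same call in all 12 fits. At 30 min and 1 h the log2 fold changes were -0.01 and -0.03 with an SE of 0.134 each.

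The KRP-type gene 5HG0403220, with a gene model of only 258 bases and rice inhibitor 4 as its homolog, was at 12.4, 5.90 and 6.82 CPM at 0 h and at 10.8, 5.94 and 5.53 at 30 min. It was at 6.42, 3.88 and 5.01 CPM at 1 h and at 3.45, 1.99 and 2.19 at 3 h. All 3 libraries at 3 h were below all 9 others, and within each time the replicate 1 library was the highest. The log2 fold change at 3 h against 0 h was -1.71 ± 0.372 (adjusted p = 0.033). This call was lost without replicate 1 or 3 of 0 h or without replicate 2 or 3 of 3 h (highest adjusted p = 0.142). With a replicate block, 5HG0403220 passed against 0 h with -1.69 ± 0.175 (adjusted p = 0.00016), where 5.09% of all tested genes passed. Against 1 h it did not pass in the main fit. It did with a replicate block (log2 fold change -1.03, adjusted p = 0.00575) and with the 3 libraries of low assigned share left out (-1.29, adjusted p = 0.0295).

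The other 3 KRP-type genes did not pass. Gene 6HG0512480 was at 11.7, 11.0 and 14.8 CPM at 0 h and at 5.29, 9.17 and 8.75 at 3 h, which did not overlap (log2 fold change -0.69 ± 0.304, adjusted p = 0.446). Gene 7HG0550740 was at 5.99, 3.88 and 2.29 CPM at 0 h and at 2.81, 2.07 and 1.40 at 3 h, which overlapped (-0.94 ± 0.358, adjusted p = 0.322). Gene 1HG0032620 was at 6.63, 7.31 and 5.86 CPM at 0 h and at 5.11, 6.49 and 6.11 at 3 h (-0.16 ± 0.197). Thus 2 of the 5 KRP-type genes fell at 3 h, and the estimates of all 5 were below 0, with a median of -0.88. Summed over the 5 genes, the level was 91.1, 74.1 and 69.6 CPM at 0 h, 75.7, 65.9 and 74.5 at 30 min, 71.1, 68.7 and 68.1 at 1 h, then 41.6, 44.5 and 44.7 at 3 h. The sums at 3 h lay below all 9 others, and gene 4HG0340150 made up most of each of them. The green-tissue markers were also lowest at 3 h, and their part in this fall was not tested.

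**Figure D2:**
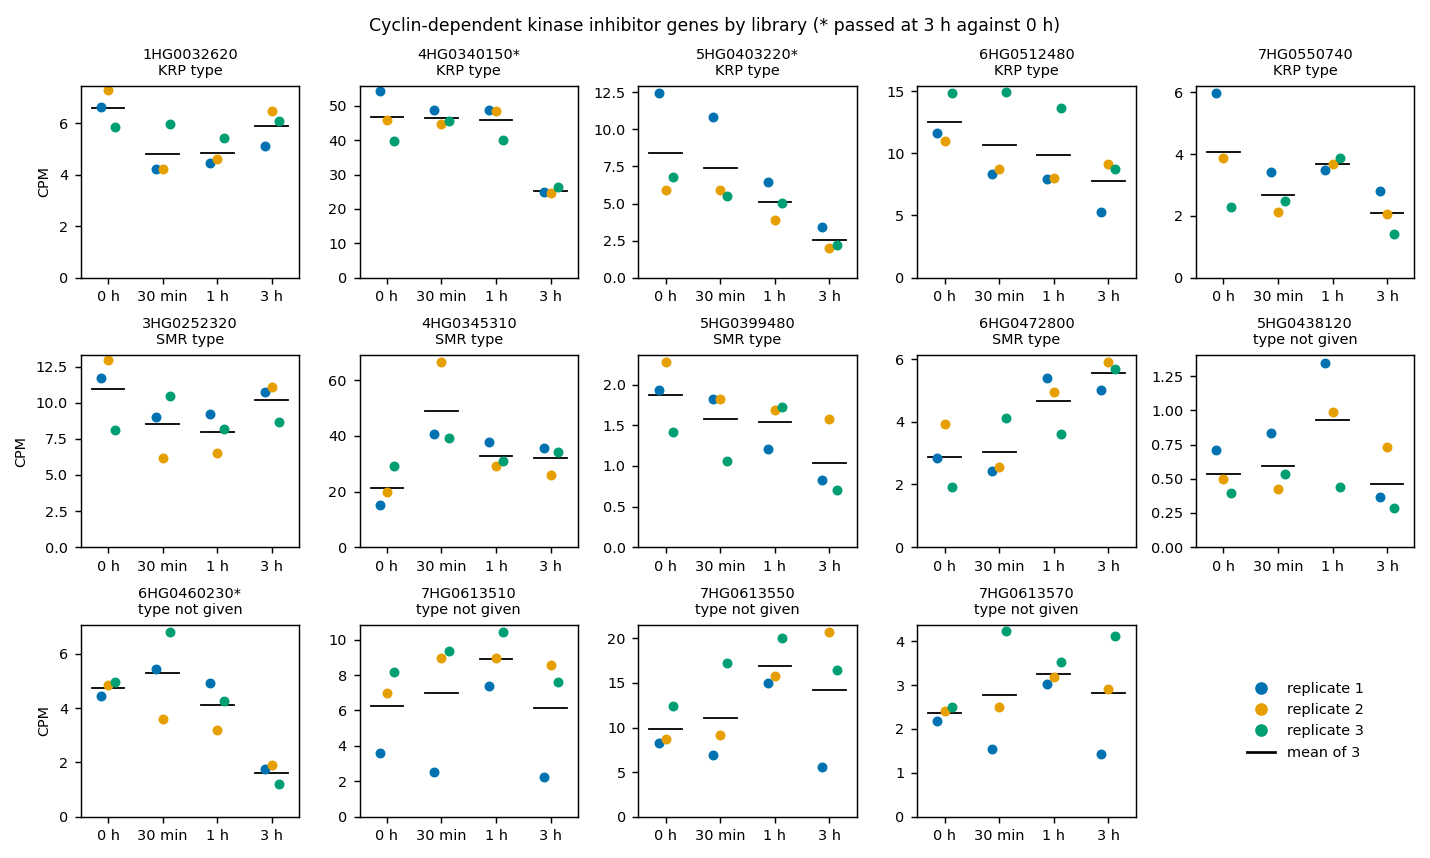
Level in CPM of the 14 inhibitor genes in every library by time, coloured by replicate, with the mean of the 3 libraries as a bar; stars mark the 3 genes that passed at 3 h against 0 h. In 4HG0340150 the 3 h libraries lie at 24.7 to 26.3 CPM against 39.8 to 54.4 at 0 h, and the SMR3-like gene 4HG0345310 is highest at 30 min.

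Among the 5 inhibitors of a type not given, 6HG0460230 fell at 3 h. Its level was 4.44, 4.84 and 4.95 CPM at 0 h, 5.43, 3.61 and 6.79 at 30 min, 4.93, 3.18 and 4.27 at 1 h, then 1.75, 1.91 and 1.196 at 3 h. No library at 3 h reached the lowest of the other 9. Its log2 fold change was -1.55 ± 0.282 against 0 h (adjusted p = 0.012) and -1.35 against 1 h (adjusted p = 0.0303). The call against 0 h was lost without replicate 3 of 3 h (adjusted p = 0.0612) and with the 3 libraries of low assigned share left out (log2 fold change -1.66, adjusted p = 0.0678). The call against 1 h was kept in 7 of 12 fits that left out 1 library (highest adjusted p = 0.125), lost without replicate 1 or 3 of 1 h or any replicate of 3 h, and lost with the 3 libraries of low assigned share left out (-1.41, adjusted p = 0.0785). In the fit with a replicate block, 6HG0460230 passed against 0 h (-1.55 ± 0.275, adjusted p = 0.00633) and against 1 h (-1.32 ± 0.276, adjusted p = 0.0159). The nearest gene model, 6HG0460220, lies 2734 bases away on the same strand. It is described as a chlorophyll a-b binding protein, so it is among the green-tissue markers. The level of 6HG0460220 was 32.2, 36.5 and 45.1 CPM at 0 h and 15.4, 23.1 and 21.2 at 30 min. It was 21.1, 16.3 and 20.1 CPM at 1 h, then 3.73, 10.1 and 4.21 at 3 h. At 30 min all its libraries were below those at 0 h, whereas those of 6HG0460230 overlapped. This neighbour fell, by a log2 fold change of -2.66 ± 0.338 against 0 h (adjusted p = 0.0011) and of -1.67 ± 0.33 against 1 h (adjusted p = 0.023). The part of this neighbour in the counts of 6HG0460230 was not tested.

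The neighbours on chromosome 7H, 7HG0613510, 7HG0613550 and 7HG0613570, are 3 more inhibitors of a type not given, separated by 142 kb and 236 kb. They did not pass in any comparison. Gene 7HG0613510 was at 2.25 to 3.60 CPM in the 3 libraries of low assigned share and at 7.01 to 10.4 in the other 9. The other two neighbours were also lower in each of those 3 libraries than in any of the other 9. The fifth, 5HG0438120, stayed between 0.289 and 1.35 CPM. Whether reads with several matches were split or dropped is not given in the sources used here. The sequence identity between the 7H neighbours was not computed.

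None of the 4 SMR-type genes passed with edgeR, and their estimates at 3 h lay on both sides of 0. The SMR3-like gene 4HG0345310, at 4H:613483151-613483510 on the minus strand, was at 15.2, 19.9 and 29.1 CPM at 0 h and at 40.8, 66.5 and 39.2 at 30 min. It stood at 37.9, 29.2 and 30.9 CPM at 1 h and at 35.8, 26.04 and 34.2 at 3 h. All 3 libraries at 30 min and at 1 h were above the highest at 0 h, while 3 h overlapped 0 h. The log2 fold change at 30 min was 1.19 ± 0.262 with an unadjusted p of 0.00077 and an adjusted p of 0.416 by edgeR. DESeq2 gave 1.18 with an adjusted p of 0.0126, and the authors' deposited table lists 1.18 with an adjusted p of 0.0137. Both rest on the same counts and are not independent of each other.

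The SMR3 gene 6HG0472800 was at 2.83, 3.92 and 1.92 CPM at 0 h, at 2.44, 2.55 and 4.12 at 30 min, at 5.40, 4.94 and 3.62 at 1 h and at 5.02, 5.92 and 5.69 at 3 h. The 3 h libraries were above all 3 at 0 h, and the log2 fold change was 0.94 ± 0.296 (adjusted p = 0.174). The SMR2-like gene 5HG0399480 was at 1.93, 2.28 and 1.41 CPM at 0 h and at 0.828, 1.58 and 0.701 at 3 h (-0.84 ± 0.371, adjusted p = 0.444). The fourth, 3HG0252320, had a log2 fold change of -0.10 ± 0.238 at 3 h. The summed level of the 4 genes was 31.7 to 40.5 CPM at 0 h and 54.1 to 77.0 at 30 min, which rests on 4HG0345310, the highest of them at 30 min in every library.

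No D-type cyclin passed in any of the 5 tests over all 12 libraries without a replicate block. With the block, 5HG0396210 passed at 3 h against 1 h (log2 fold change -0.91, adjusted p = 0.0487). This gene, which had the lowest estimate at 3 h against 0 h, is described after Arabidopsis cyclin D1-1 and rice cyclin D2-1. Its level was 6.18, 12.4 and 6.59 CPM at 0 h and at 5.02, 5.23 and 4.41 at 3 h, so the groups did not overlap (log2 fold change -0.78 ± 0.287, adjusted p = 0.288). Gene 2HG0102320, a D4-1 homolog of Arabidopsis, was at 22.3, 19.5 and 17.4 CPM at 0 h and at 15.8, 14.9 and 14.3 at 3 h (-0.39 ± 0.139, adjusted p = 0.255). Both were lower in all 3 libraries at 3 h than in any at 0 h, without passing that comparison in either fit.

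The D6-1 homolog 2HG0112070 had an estimate above 0. It was at 15.1, 16.2 and 16.2 CPM at 0 h, 13.1, 17.4 and 16.9 at 30 min, 17.8, 19.3 and 17.8 at 1 h, then 16.2, 25.02 and 24.1 at 3 h. In Arabidopsis, cyclin D6;1 is known for a formative division in the root ground tissue. Its log2 fold change was 0.46 ± 0.172 (adjusted p = 0.305), and with the 3 libraries of low assigned share left out it was 0.59 (adjusted p = 0.032). The highest estimate in the class, that of the D5-type gene 5HG0363100, was 0.66 ± 0.498, with 0 h (1.35 to 5.06 CPM) and 3 h (2.81 to 6.02 CPM) overlapping.

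The D-type genes most abundant per length did not pass either. The D3-type gene 5HG0387330, at 24.5 CPM per kb, had a log2 fold change of -0.22 ± 0.188 at 3 h and the D4-type gene 6HG0511430, at 22.02 CPM per kb, one of -0.09 ± 0.236. Those described as delta-3, 4HG0348310 and 5HG0429590, stood at -0.05 ± 0.224 and -0.06 ± 0.268. Over all 12 D-type genes, 9 estimates were below 0 and 3 above, with a median of -0.16. Their summed level was 121.8, 153.9 and 128.4 CPM at 0 h and 108.7, 138.1 and 140.3 at 3 h, which overlapped.

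The 6 A-type cyclins had log2 fold changes between -0.50 and 0.02 at 3 h, and the smallest adjusted p was 0.999. The A3-type gene 5HG0363660, highest of them per length, was at 31.9, 33.5 and 33.8 CPM at 0 h and at 40.5, 29.0 and 30.8 at 3 h. The A1-type gene 3HG0207100 was at 29.5, 35.5 and 28.3 CPM at 0 h and at 27.2, 29.3 and 31.4 at 3 h (-0.09 ± 0.166). The A2-type gene 3HG0273090 was at 10.7, 26.5 and 19.6 CPM at 0 h and at 11.0, 18.8 and 19.8 at 3 h, so replicate 1 was the lowest at both times. A pair of A3-type neighbours on chromosome 4H, 222 kb apart, were at 0.0920 to 0.515 CPM (4HG0331070) and at 2.05 to 5.39 CPM (4HG0331120). The A3-2 gene 4HG0299330 was at 0.934 to 2.51 CPM with a log2 fold change of -0.23 ± 0.41.

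Among the 11 B-type cyclins, 1HG0045170 alone passed. It is described as cyclin B1, has a gene model of only 192 bases and no homolog listed, and lies at 1H:382347394-382347585 on the minus strand. Its level was 5.47, 3.31 and 2.55 CPM at 0 h, 4.71, 2.72 and 3.55 at 30 min, 4.00, 3.11 and 3.45 at 1 h, then 16.9, 8.72 and 7.26 at 3 h. The 3 h libraries were above the other 9, with replicate 1 the highest. The log2 fold change was 1.55 ± 0.365, a 2.94-fold higher level (adjusted p = 0.0489), and 1.64 against 1 h (adjusted p = 0.0423). The call against 0 h was kept in 2 of 12 fits that left out 1 library, those that dropped replicate 1 at 0 h or replicate 3 at 3 h, with adjusted p from 0.0347 to 0.196. The call against 1 h was kept in 5 of the 12 fits (highest adjusted p = 0.173). Without replicate 1 of 3 h the log2 fold change against 0 h was 1.10. In the fit with a replicate block, 1HG0045170 passed against 0 h (1.52 ± 0.217, adjusted p = 0.00151) and against 1 h (1.55 ± 0.217, adjusted p = 0.0018). DESeq2 also called it against 0 h (1.56, adjusted p = 0.0017).

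A further gene model on the same strand, 1HG0045180, described as a RING/U-box protein, ends 258 bases upstream of that cyclin B1 model. It was at 3.28, 3.66 and 2.75 CPM at 0 h and at 3.49, 3.86 and 3.74 at 30 min. It was at 5.675, 4.39 and 4.74 CPM at 1 h and at 7.87, 8.03 and 7.22 at 3 h. Its log2 fold change at 3 h was 1.26 ± 0.181 against 0 h (adjusted p = 0.00256). Against 1 h the change was 0.64 ± 0.177 and did not pass (adjusted p = 0.104), unlike that of 1HG0045170. Whether the reads counted for the cyclin B1 model belong to this neighbour's transcript was not tested. The direction of 1HG0045170 is therefore given for the gene model and not for a cyclin protein.

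The other 10 B-type genes had log2 fold changes between -0.28 and 0.63 at 3 h. The B2-type gene 2HG0155650, highest of the class per length, was at 36.7, 37.7 and 32.5 CPM at 0 h and at 53.4, 32.3 and 35.8 at 3 h. The B2-type gene 7HG0623510 was at 19.6, 53.5 and 32.9 CPM at 0 h and at 20.6, 31.7 and 35.2 at 3 h. In the former, replicate 1 of 3 h was above all other libraries, and in the latter replicate 1 was the lowest library at both times. The B2-2 gene 3HG0235510 was at 5.79, 3.16 and 3.96 CPM at 0 h and at 6.67, 3.69 and 3.88 at 3 h. The B1-type genes on chromosome 1H, 1HG0055800, 1HG0055810 and 1HG0055870, lie 48.8 kb and 399 kb apart and had log2 fold changes of 0.25, -0.09 and 0.12.

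**Figure D3:**
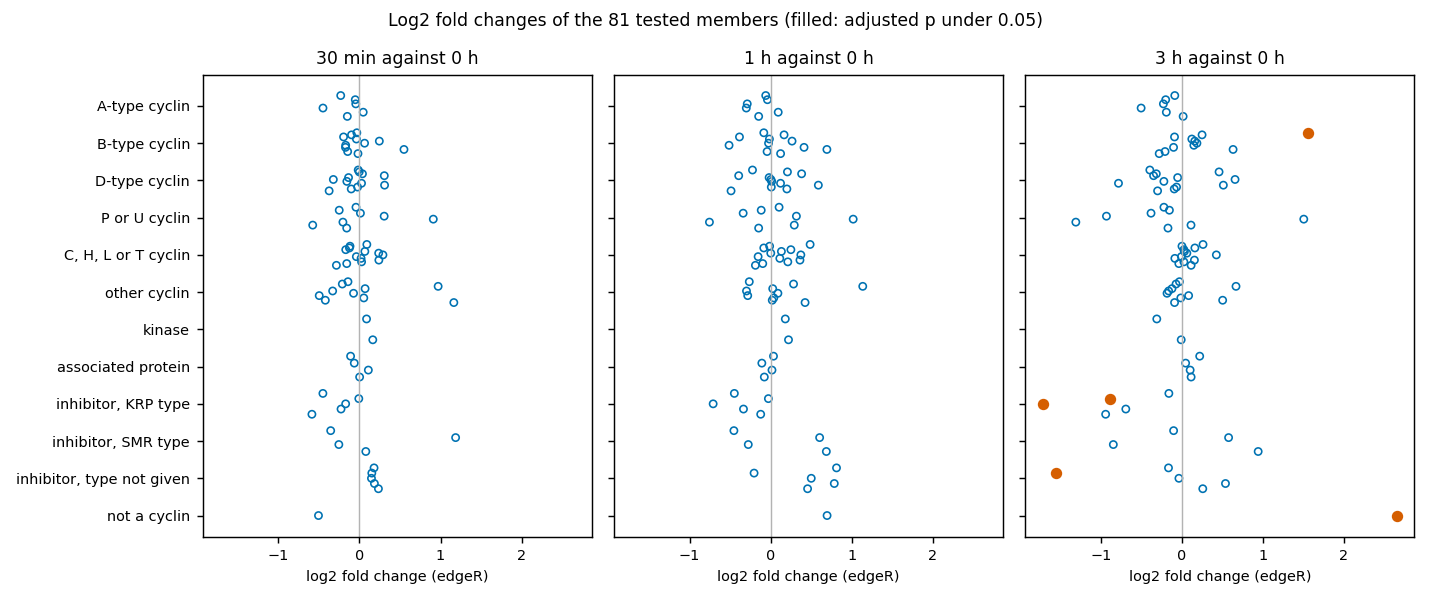
Log2 fold changes (edgeR) of the 81 tested genes at 30 min, 1 h and 3 h against 0 h, by class; each circle is a gene and filled circles passed at an adjusted p under 0.05. No circle is filled at 30 min or 1 h, and at 3 h the 5 filled ones are 3 inhibitors on the left and 1HG0045170 and the DOF gene on the right.

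Both genes described as cyclin-dependent kinases stayed without a call. The gene 2HG0137660, with rice kinase A-2 as homolog, was at 5.79, 7.23 and 6.39 CPM at 0 h and at 5.06, 5.19 and 5.45 at 3 h, without overlap (log2 fold change -0.31 ± 0.192, adjusted p = 0.757). A-type kinases are the main kinases of the plant cell cycle. The gene 3HG0269650, with rice kinase C-2 as homolog, was at 19.2, 28.5 and 30.2 CPM at 0 h and at 20.98, 25.996 and 30.7 at 3 h (-0.01 ± 0.223).

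The 13 cyclins of types C, H, L or T had a median log2 fold change of 0.03 at 3 h, between -0.09 and 0.43. The C1-1 homolog 5HG0408790, highest of them per length, was at 26.9, 31.3 and 35.4 CPM at 0 h and at 24.0, 31.3 and 32.9 at 3 h. The T1-type genes 2HG0145600 and 3HG0217990 had log2 fold changes of 0.00 ± 0.129 and 0.16 ± 0.136. The largest estimate was that of 5HG0375900, a T1-4 gene model of 279 bases, at 0.43 ± 0.37 (3.22 to 7.61 CPM at 0 h, 4.42 to 10.1 CPM at 3 h).

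The P or U cyclins, a plant group related to the phosphate-signalling cyclins of yeast, had estimates from -1.31 to 1.504 at 3 h, and none passed. The U4-2 homolog 2HG0153590 was at 3.54, 2.59 and 4.58 CPM at 0 h, 2.83, 4.71 and 5.68 at 30 min, 3.26, 4.25 and 5.86 at 1 h, then 1.70, 2.07 and 1.86 at 3 h. Every library at 3 h was below the other 9 (log2 fold change -0.93 ± 0.321, adjusted p = 0.237). DESeq2 called this gene at 3 h against 1 h (log2 fold change -1.24, adjusted p = 0.0108) and over the time course (adjusted p = 0.0281). The U1-1 homolog 2HG0165270 was at 0.901, 0.533 and 0.622 CPM at 0 h and at 0.322, 0.324 and 0.165 at 3 h, also without overlap (-1.31 ± 0.476, adjusted p = 0.281). The rice P2-1 homolog 2HG0156880 was at 0.708, 0.990 and 1.92 CPM at 0 h and at 1.15, 4.95 and 4.46 at 3 h, with replicate 1 of 3 h inside the range of 0 h. Its log2 fold change was 1.504 ± 0.643 (adjusted p = 0.42), and 1.55 in the fit with a replicate block (adjusted p = 0.0437). The most abundant gene of the group per length, 1HG0050800, was at 25.2 to 30.8 CPM at 3 h against 27.5 to 34.5 at 0 h. A further U4-2 homolog, 6HG0497270, had a log2 fold change of -0.17 ± 0.236. Gene 2HG0112310, at no more than 0.779 CPM in any library, was the member with too few reads to be tested.

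Of the 10 other cyclins, none passed at 3 h, with estimates from -0.18 to 0.67. Gene 3HG0246040, described only as cyclin and the highest of them per length, was at 29.6, 71.8 and 45.8 CPM at 0 h and at 31.3, 47.0 and 51.6 at 3 h. Gene 4HG0285910 was at 24.7, 26.2 and 22.9 CPM at 0 h, 16.9, 15.2 and 20.2 at 30 min and 32.9, 22.7 and 22.7 at 3 h. The gene 4HG0328700, similar to the rice cyclin SDS-like gene, was at 1.09, 1.33 and 1.47 CPM at 0 h and at 1.15, 2.64 and 1.77 at 3 h. The gene 2HG0112220 stayed at or below 0.695 CPM in every library.

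The gene 6HG0513050, described as G1/S-specific cyclin E, falls outside the rule for named genes and was chosen after its values were seen. It was at 10.4, 10.3 and 11.7 CPM at 0 h, 18.2, 40.9 and 13.4 at 30 min, 13.5, 15.9 and 14.05 at 1 h, then 5.98, 12.1 and 12.3 at 3 h. All 3 libraries at 30 min and 1 h were above those at 0 h, and replicate 2 of 30 min was far above the rest. At 30 min its log2 fold change was 1.16 ± 0.37 (adjusted p = 0.80 by edgeR). DESeq2 called 6HG0513050 over the time course (adjusted p = 0.0458). The listed Arabidopsis homolog of this gene is described as an unknown protein.

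None of the 4 associated proteins passed. The estimates at 3 h ran from 0.05 to 0.22, and the smallest adjusted p was 0.826. They were the cyclin D1-binding protein 1 gene 1HG0069900 (0.22 ± 0.152), the kinase 2-interacting protein genes 3HG0233660 (0.10 ± 0.112) and 4HG0330210 (0.11 ± 0.16) and the S-phase cyclin A-associated protein gene 2HG0105890 (0.05 ± 0.222). Gene 3HG0233660 stayed within 31.5 to 38.4 CPM in all 12 libraries.

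The DOF gene 5HG0350330, on chromosome 5H from 3701014 to 3701833, was low before 3 h. It was at 0.257, 0.228 and 0.368 CPM at 0 h, 0.111, 0.255 and 0.229 at 30 min, 0.512, 0.366 and 0.542 at 1 h, then 1.66, 2.35 and 1.53 at 3 h. Every library at 3 h was above the other 9. The log2 fold change was 2.65 ± 0.39 against 0 h (adjusted p = 0.00296), kept in all 12 fits that left out 1 library, and 1.95 against 1 h (adjusted p = 0.0187). The call against 1 h was kept in 8 of the 12 fits and lost without any 1 of the 1 h libraries or without replicate 2 of 3 h (highest adjusted p = 0.106). In Arabidopsis, cycling DOF factors are repressors in the photoperiodic control of flowering, and their transcripts follow the hour of the day. The hour of sampling is not given in the labels, and its part in this rise was not tested.

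At the earlier times no gene of the 82 passed with edgeR. At 30 min against 0 h, 3 genes had all libraries above and 3 all below those at 0 h, against 4.68% and 2.94% of all tested genes. An unadjusted p under 0.05 was found for 4 of the 81 tested members and for 1095 of all 24920 tested genes. After adjustment, 0.00401% of all tested genes passed. DESeq2 called 1 gene there, 4HG0345310, and 0.391% of all genes with an adjusted p. At 1 h, 7 genes had all libraries above and 3 all below those at 0 h, against 7.16% and 6.4% of all tested genes. There 3 of the 81 tested members and 1432 of all 24920 tested genes had an unadjusted p under 0.05. With edgeR, 0 members and 0.0963% of all tested genes passed after adjustment. DESeq2 called 0 members as well, and its share of all genes at 1 h is not given here. Over the whole time course, 4 of 81 genes passed edgeR's F-test, against 2.3% of all tested genes. These were 1HG0045170 (adjusted p = 0.0405), 4HG0340150 (0.0085), 6HG0460230 (0.0247) and the DOF gene (0.00171). Over the 12 fits that left out 1 library, these calls were kept in 3, 10, 7 and 12 fits in that order. The call for 6HG0460230 was also lost with the 3 libraries of low assigned share left out (adjusted p = 0.142). For 4HG0340150 the call was lost without replicate 2 or 3 of 3 h (highest adjusted p = 0.0693). With a replicate block, 6 members passed the time course against 5.8% of all tested genes, and with DESeq2 8 passed against 6.18% of all genes with an adjusted p. At 3 h against 0 h, 6 passed with the block, against 5.09%.

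At 3 h against 1 h, the same 4 genes passed as in the time course, 2 higher and 2 lower, against 2.08% of all tested genes, 1.19% higher and 0.887% lower. In the fit with a replicate block, 7 of 81 passed, 2 higher and 5 lower, where 6.79% of all tested genes passed. The added genes were the KRP-type gene 5HG0403220, the U4-2 homolog 2HG0153590 (log2 fold change -1.21, adjusted p = 0.0159) and the D-type gene 5HG0396210. This comparison and that of 3 h with 0 h share the 3 h libraries.

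**Figure D4:**
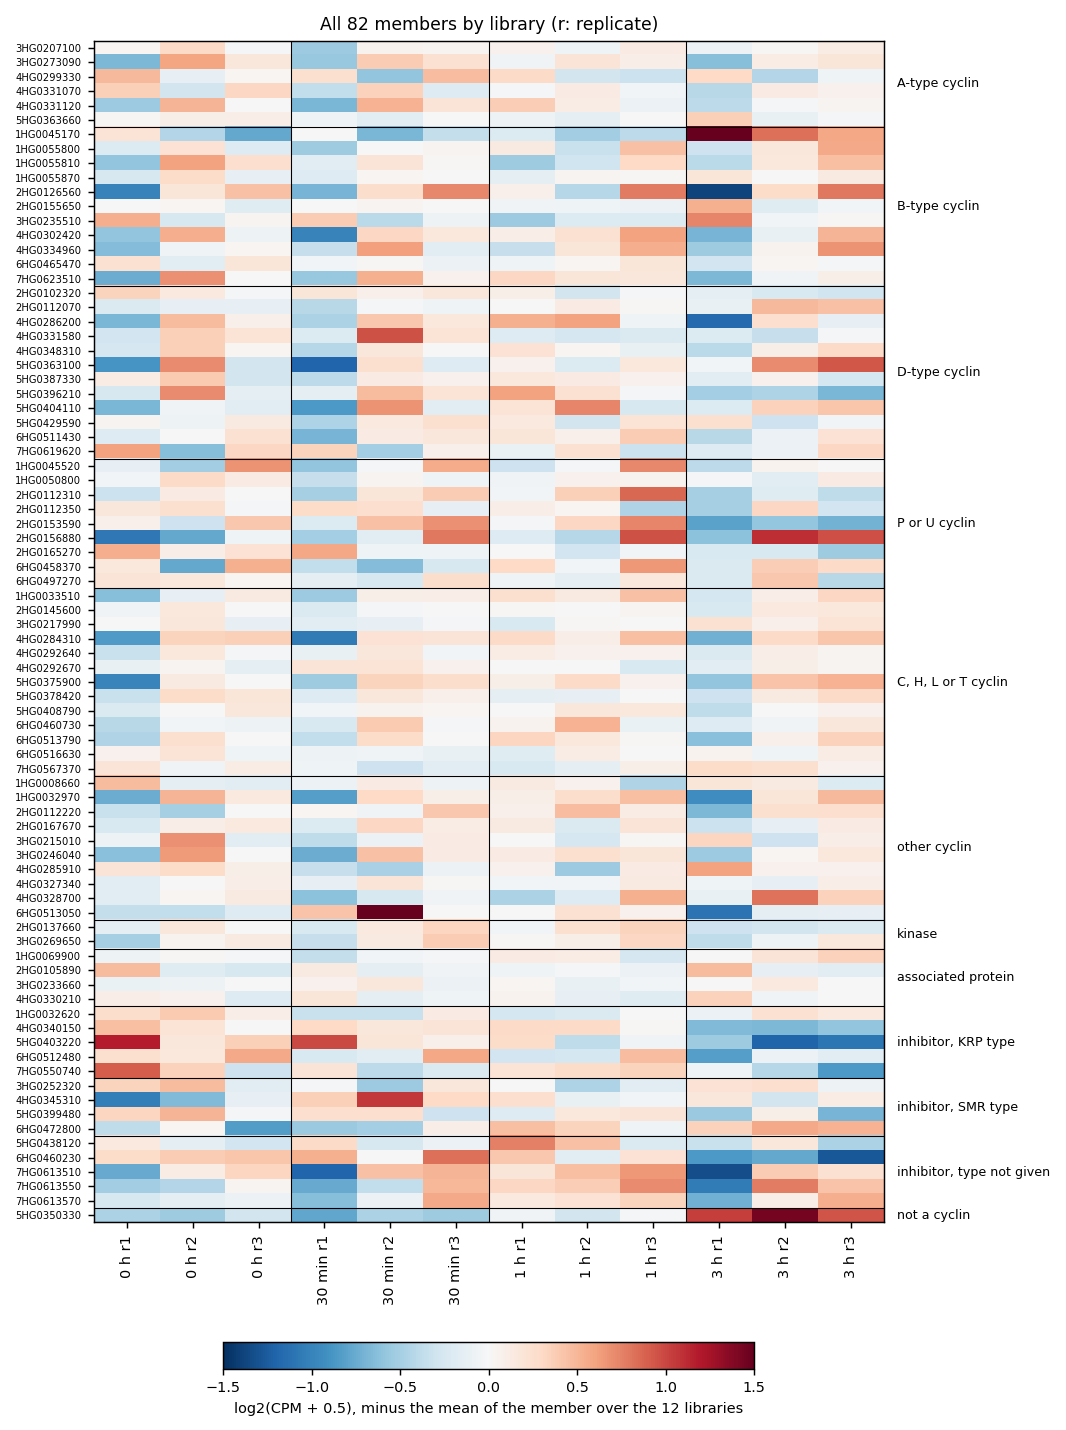
Level of each of the 82 genes in each of the 12 libraries as log2(CPM + 0.5) minus the mean of that gene over the libraries, with genes grouped by class and colours limited to 1.5 either way. The KRP-type rows 4HG0340150 and 5HG0403220 are blue at 3 h, and many cyclin rows are blue in replicate 1 of 0 h, 30 min and 3 h.

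The cyclin genes differed between libraries within a time as well. In the 3 libraries of low assigned share, 24 of the 82 genes (29.3%) were below all 9 other libraries and 3 (3.66%) were above, where 12.8% of all tested genes were below and 10.8% above. The 24 were 9 of the 13 cyclins of types C, H, L or T, 4 of the 11 B-type, 3 of the 12 D-type and 2 of the 6 A-type cyclins, 2 other cyclins, 1 kinase and 3 inhibitors. The H1 homolog 4HG0284310 was at 2.77 to 3.63 CPM in those 3 libraries and at 6.81 to 8.87 in the other 9. Gene 3HG0246040 was at 27.3 to 31.3 CPM in the 3 and at 45.8 to 71.8 in the 9, and the B2-type gene 7HG0623510 at 19.6 to 22.1 and 31.7 to 53.5. No KRP-type or SMR-type inhibitor showed such a split. The 3 libraries also share the replicate number 1, and the replicate 1 library of 1 h, with 77.95% of reads assigned, was among the 9. Each of the times 0 h, 30 min and 3 h holds 1 of the 3 libraries and 1 h holds none. With these 3 libraries left out, 5 members passed at 3 h against 0 h and 4 at 3 h against 1 h, without 6HG0460230 in either. The share of all tested genes that passed in this fit is not given here, so these counts have no background beside them.

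**Figure D5:**
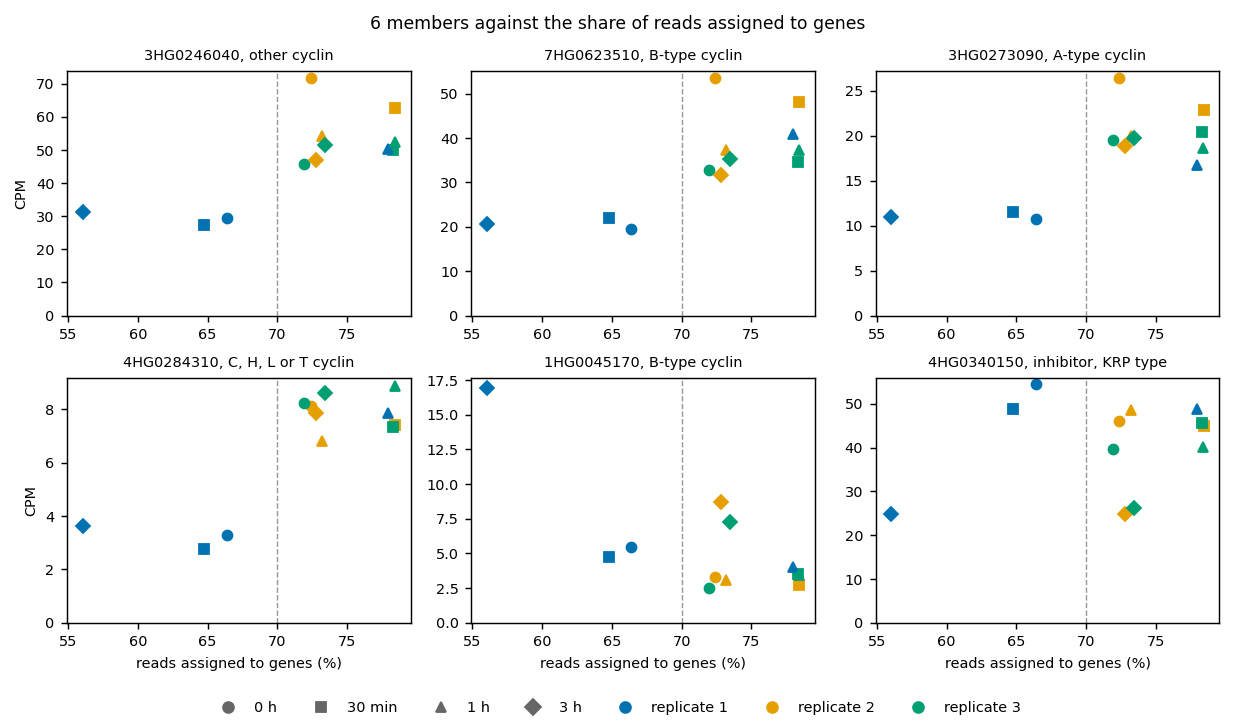
Level in CPM of 6 genes in each library against the percentage of reads assigned to genes; colours mark the replicate, symbols the time, and the dashed line is at 70%. The first 4 genes are lower in the 3 libraries left of the line than in the 9 others, whereas 1HG0045170 and 4HG0340150 separate the 3 h libraries.

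The summed level of the 29 A-, B- and D-type cyclins was 307.7, 413.2 and 334.9 CPM at 0 h, 274.4, 383.4 and 356.3 at 30 min, 361.5, 348.5 and 358.5 at 1 h, then 338.0, 348.2 and 370.7 at 3 h. All 4 times overlapped, and the lowest sums at 0 h, 30 min and 3 h were those of replicate 1. The summed level of all 14 inhibitors was 141.9, 136.6 and 138.5 CPM at 0 h, 147.1, 167.5 and 167.5 at 30 min, 156.4, 143.1 and 151.2 at 1 h, then 105.4, 123.9 and 123.6 at 3 h. All 3 inhibitor sums at 3 h were below every other library, and all 3 at 30 min were above those at 0 h.

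Other cell-cycle genes, taken by words in their descriptions, were counted for comparison. Of 9 tested genes of the switch from G1 to S (E2F, DP and retinoblastoma genes), 68 of DNA replication and 62 of mitosis, 0 passed in any comparison with 0 h. Of all tested genes, 0.00401% passed at 30 min, 0.0963% at 1 h and 2.48% at 3 h, so few calls would be found in lists of this size. The median log2 fold changes of the lists at 3 h were 0.02, 0.01 and -0.06 in that order. That of all tested genes was -0.00425. Against 1 h, 2 of the 62 mitosis genes passed at 3 h, where 2.08% of all tested genes passed. The first, a gene described as dedicator of cytokinesis 8, a regulator of small GTPases that matched by its name alone, was higher by 1.15 on the log2 scale (adjusted p = 0.0362). The anaphase-promoting complex subunit 10 gene 2HG0101500, part of the ligase that marks mitotic cyclins for breakdown, was at 2.61, 2.49 and 3.42 CPM at 1 h and at 1.01, 0.487 and 0.578 at 3 h (-2.04 ± 0.462, adjusted p = 0.0461).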

How the data were processed

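Poly(A) RNA was sequenced with a directional kit in paired reads of 150 bases, per the labels' protocols. Per the submitters' processing notes, the tools were HISAT2 2.0.5 and Subread 1.5.2, besides bcl2fastq and SAMtools. Raw counts per gene were deposited by the authors without normalization for 63658 genes. Not given in the sources used here are the genome build and whether counting used strand or reads with several matches, so coordinates are printed as deposited. The authors' deposited table also holds their log2 fold changes and adjusted p-values, made with a test that is not stated. The authors' total of reads per library was used for the assigned share alone. No member could be matched to the reference table of gene names by ID (0 matched), so no sequence is shown.

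Counts were tested in R 4.3.3 with edgeR 4.0.16 (filterByExpr, minimum count 10 and total 15, TMM, 1 model of 4 times with 8 residual degrees of freedom, 24920 genes). CPM are counts per 1000000 assigned reads scaled by the TMM factors. DESeq2 1.42.0 was an alternative. The procedure was tested on simulated data. Figures were drawn with matplotlib 3.10.9 in Python 3.11.15, the heat map with a pseudocount of 0.5 CPM. Replicates differed from each other by more than sampling noise (chi-square from 16.1 to 88.3 per degree of freedom). The p-values measure the spread between pools of 5 crowns.

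The members, the lists and the tests were chosen with earlier results of these data known. Named are all genes that passed a test and, in each class, the 2 most abundant per length, the 2 with the smallest p and the largest rise and fall at 3 h against 0 h. The genes 2HG0112070, 4HG0284310 and 6HG0513050 and those that complete a class or a group of neighbours (1HG0032620, 6HG0512480, 7HG0550740, 1HG0055800, 1HG0055810, 1HG0055870, 2HG0112310, 4HG0331120, 5HG0438120 and 7HG0613570), the marker 3HG0201600 and the nearest genes 1HG0045180 and 6HG0460220 fall outside this rule and were chosen after their values were seen. Classes were to come from the barley descriptions. After those had been read, they were completed from the homolog descriptions, in the order Arabidopsis, Brachypodium, rice, sorghum and maize, and the naming rule was applied to both sets of classes.

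Whether the replicate numbers pair libraries was checked by the correlation of deviations from the time means. Every same-numbered pair exceeded 0.1 at 30 min against 0 h (0.45 to 0.641), 3 h against 0 h (0.203 to 0.595) and 3 h against 1 h (0.139 to 0.398), but not at 1 h against 0 h (lowest 0.0958). Over all pairs of times, 17 of 18 same-numbered pairs exceeded 0.1. Pairs of different number ran from -0.593 to 0.268, and 12 of 12 libraries correlated best with their own number. The main fits hold no replicate block, and the fit with the block is given as an alternative.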

Additional observations from a re-analysis of the deposited data

How the results depend on the processing

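Counts of genes that passed were compared under 18 alternatives: a replicate block, DESeq2's size factors, DESeq2, 2 other filters on low counts, the 3 libraries of low assigned share left out, and each of the 12 libraries left out in turn. For the time course (4 genes, and 574 of all genes), DESeq2 called 8 (1572 of all genes) and the fits that left out 1 library called 1 to 4. At 30 min against 0 h (0 genes, and 1 of all genes), DESeq2 called 1 (94 of all genes). At 3 h against 0 h (5 genes), the fits that left out 1 library called 3 to 5. At 3 h against 1 h (4 genes, and 518 of all genes), the replicate block called 7 (1692 of all genes) and the fits that left out 1 library called 1 to 4. In the paired analysis with the replicate block, 6 genes passed at 3 h against 0 h (5.09% of all genes) and 6 in the time course (5.8% of all genes). The other counts stayed within 1.5 times the main one. For the fits that left out libraries, the share of all genes that passed is not given here. Their counts therefore have no background beside them.

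Of the named genes that did not pass, 6 had an estimate at 3 h against 0 h that changed sign by more than its SE. With the 3 libraries of low assigned share left out, 2HG0155650 was at -0.0466 and 5HG0363660 at -0.174. Over the fits that left out 1 library, the estimate ran from -0.198 to 0.314 in 2HG0105890, from -0.0634 to 0.326 in 2HG0155650, from -0.175 to 0.41 in 3HG0235510 and from -0.144 to 0.109 in 5HG0363660, with the negative value without replicate 1 of 3 h. It ran from -0.441 to 0.197 in 3HG0246040 and from -0.566 to 0.149 in 7HG0623510, with the positive value without replicate 2 of 0 h. For these the cause was not tested. No alternative moved the median of all genes at 3 h against 0 h by more than 0.022 on the log2 scale. With 3 libraries per time, a missed call does not show that a gene did not change, and genes under about 1 CPM rest on few reads.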
